A study of Mus musculus with 6 samples.

Results

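The genes described here are 42 matrix metalloproteinases (MMPs), ADAM and ADAMTS proteases, ADAMTS-like proteins, Timp inhibitors, HtrA proteases, procollagen proteases with their enhancers, and the prolyl endopeptidase gene Fap, chosen by symbol from 57180 identified rows of the deposited count table. All 42 symbols matched 1 row each, and 24 had enough counts to be tested among 8692 tested genes. RNA came from cells derived from mouse calvaria, the bones of the skull vault, differentiated in osteogenic medium with 10% serum, ascorbate and 4 mM β-glycerophosphate. The 3 wt libraries are from C57BL/6 cells and the 3 gld libraries from cells of the strain B6Smn.C3-Faslgld/J, in which both copies of Fasl carry the gld mutation and which is labelled FasL KO. The question was how matrix genes of osteoblasts respond when Fas ligand does not work. The gld mutation is carried by every cell of the animal, not by osteoblasts alone. The labels describe wt, gld and FasL-treated gld cultures run in parallel for 72 h from day 14 of differentiation, and libraries of treated cells were not analysed here. No label gives the age of the mice, the day on which a library was taken, or whether the replicates are different animals or different cultures. The p-values therefore rest on the spread between libraries alone, which may be technical.

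MMPs and ADAMTS proteases are zinc enzymes that are made as inactive precursors and cut collagens, proteoglycans and other matrix proteins outside the cell. ADAM proteases sit in the membrane and release the outer parts of growth factors, receptors and adhesion proteins, and Timp proteins bind and block the active sites of these enzymes. In bone the collagenase MMP13 and the membrane enzyme MMP14 take part in matrix turnover, while ADAMTS2, ADAMTS14 and BMP1 trim procollagen so that it can form fibrils.

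In gld cells the collagenase gene Mmp13, the aggrecanase genes Adamts5 and Adamts15, the inhibitor gene Timp2, the serine protease gene Htra3, the procollagen C-proteinase enhancer gene Pcolce2 and Fap were higher than in wt. The stromelysin gene Mmp10, the membrane protease genes Adam12 and Adam19 and the procollagen N-proteinase gene Adamts14 were lower. These 7 higher and 4 lower genes passed edgeR's quasi-likelihood test at an adjusted p of 0.05, 11 of the 24 tested members, where 17.4% of all tested genes were past it (9.74% higher and 7.69% lower). A change of at least 2-fold was fitted for 6 of the higher and all 4 of the lower genes. The wt and gld libraries did not overlap in the 11 called members and in 1 of the 13 others, beside 33.3% of all tested genes. A call makes such a separation likely, so it adds no support to the 11 calls. The members' median log2 fold change, gld minus wt, was 0.26 and that of all tested genes was 0.02. Of the 24 tested members, 18 reached the filter's level in all 6 libraries, and of those 5 were called higher and 2 lower. Mmp10 passed the filter through the wt group alone and had to differ, and Fap and Pcolce2 reached that level in 1 wt library each, so these counts describe the genes that could be tested and not the whole set.

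Libraries held 2011173 to 5245546 counts, with the 3 wt libraries the shallowest. Levels are given as CPM, the counts of a gene relative to the TMM-scaled total of its library, as mean ± SD over 3 libraries. Each read comes from near the 3′ end of a transcript, so CPM counts tags and not coverage along the gene. Scaling by library size alone moved the median over all genes, as a log2 fold change, from 0.02 to −0.14, and the calls from 847 higher and 668 lower to 720 higher and 975 lower, and the direction and call of each of the 11 called members held under both scalings. With 3 libraries on each side, no exact permutation test can go below p = 0.1, so single values outside the fit across all genes are given with their spread. Of the osteoblast markers, 7 of 10 could be tested. In gld 5 rose (Col1a1, Col1a2, Cdh11, Ibsp and Phex), 1, Alpl, fell, and Runx2 was not past the threshold. Of those that rose, Ibsp and Phex passed the filter through gld alone and could only be called higher. Sp7, Bglap and Spp1 had no count in wt and 20, 1 and 4 in gld, and the end of Spp1 transcripts is shared by several isoforms.

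Markers of some other cell types moved with the groups, while the lists for endothelial cells and neutrophils gave no call. All 8 tested macrophage markers of 14 rose in gld, with a summed level of 3.29 to 124 CPM in wt and 2231 to 6255 CPM in gld, although the defining markers Adgre1, Csf1r, Cd163, Tyrobp and Fcer1g were listed at 0 in every library. C1qc, Marco and Mrc1 had no count in wt, and C1qa, C1qb, Cd68 and Laptm5 had counts in 1 wt library each, at most 8, so these 7 passed the filter through gld alone and could only be called higher. All 4 tested chondrocyte markers of 9 rose (212 to 224 CPM in wt and 1036 to 1074 CPM in gld), with Col9a1 and Col9a3 listed at 0, and of these 4 Acan and Col11a2 passed the filter through gld alone. All 4 tested smooth muscle and myofibroblast markers of 6 fell (6783 to 7521 CPM in wt and 3202 to 3364 CPM in gld). Of 9 osteoclast markers, 2 could be tested: Ctsk rose and Itgb3 fell, and Acp5, Dcstamp, Calcr, Nfatc1 and Oscar were listed at 0. Of 7 endothelial markers, 2 (Kdr and Plvap) could be tested and were not past the threshold, and 5 were listed at 0. Except for Csf1r, the markers named above as listed at 0 have transcript ends shared by several isoforms, where a 0 does not show absence. The part of the cell type markers in the differences below was not tested. Fewer cells of a type cannot be told apart from less RNA per cell.

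Mmp13, Mmp3, Mmp10 and Mmp8 belong to 1 cluster of MMP genes on mouse chromosome 9, and the stretch of bases just before their annotated starts is shown because members with a similar start responded differently. Other MMP genes lie among them and were not tested: Mmp12 and Mmp1b, between Mmp13 and Mmp3, were listed at 0, and Mmp1a, between Mmp3 and Mmp10, had 17 counts in wt and 3 in gld. The sequences are RefSeq promoters of GRCm38.p6, the 120 bases that end 1 base before the start, 5′ to 3′ on the gene's strand: chr9:7272394-7272513 for Mmp13, chr9:7445702-7445821 for Mmp3, chr9:7502222-7502341 for Mmp10 and chr9:7558309-7558428 for Mmp8, all on the plus strand. Htra3, chr5:35679781-35679900 on the minus strand, is shown beside them as the member with the smallest adjusted p. Capitals mark 4 motifs searched on both strands. The motif of AP-1, a dimer of Fos and Jun proteins, was spelled TGANTCA. The TATA box, which places the start of transcription, was spelled TATAAA. The motif of Runx factors, which include the osteoblast regulator Runx2, was spelled TGTGGT. The motif of PEA3, a group of Ets factors, was spelled AGGAAG.
Mmp13: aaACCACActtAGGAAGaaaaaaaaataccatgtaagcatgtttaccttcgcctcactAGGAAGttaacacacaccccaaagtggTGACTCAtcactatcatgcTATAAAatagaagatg
Mmp3: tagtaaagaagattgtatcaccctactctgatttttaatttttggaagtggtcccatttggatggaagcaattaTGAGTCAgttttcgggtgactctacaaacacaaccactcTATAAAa
Mmp10: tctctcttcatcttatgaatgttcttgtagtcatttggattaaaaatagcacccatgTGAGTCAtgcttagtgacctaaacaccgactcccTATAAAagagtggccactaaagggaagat
Mmp8: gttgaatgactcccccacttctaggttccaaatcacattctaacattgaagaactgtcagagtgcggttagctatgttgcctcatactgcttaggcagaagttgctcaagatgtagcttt
Htra3: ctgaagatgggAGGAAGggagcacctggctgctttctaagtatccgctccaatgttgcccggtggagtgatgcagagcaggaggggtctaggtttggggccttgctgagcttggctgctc

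Mmp13, Mmp3 and Mmp10 each held an AP-1 match followed by a TATA box on the sense strand, and Mmp8 held neither in full within these 120 bases, since a TATAAA on its antisense strand runs across the start. The AP-1 match began 35 bases before the start in Mmp13, 46 in Mmp3 and 63 in Mmp10, and the TATA box 16, 7 and 29 bases before it. These distances rest on the annotated starts, from which the TATA box lay unequally far. Mmp13 also held a Runx match on the antisense strand, 118 bases before the start, and 2 PEA3 matches. No matches of different motifs overlapped. Over the full 300 bases, from 250 before to 50 after the start, AP-1 was found in 7.81% of 32851 promoters, the TATA box in 13.6%, Runx in 16.8% and PEA3 in 35.4%. Of 28 members with an entry (31 promoters), 4 held AP-1, namely Mmp13, Mmp3, Mmp10 and, 131 bases before 1 of its 3 annotated starts, Adam19. TATAAA was found in 6 members. Runx was found in 6, namely Adam15, Adam19, Htra1, Mmp13, Mmp14 and Mmp23. PEA3 was found in 12, namely Adam10, Adam17, Adam19, Adamts12, Htra3, Mmp13, Mmp14, Mmp3, Mmp8, Timp1, Timp3 and Timp4. In Mmp3 and Mmp8 the PEA3 match began 183 and 220 bases before the start, outside the 120 bases shown. Among the called members, those with an AP-1 match thus include 1 that rose and 2 that fell. The 14 members without an entry are Mmp2, Mmp9, Mmp16, Mmp19, Adam9, Adam12, Adamts4, Adamts5, Adamts7, Adamts10, Adamts15, Adamtsl1, Bmp1 and Fap.

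Mmp13 (ENSMUSG00000050578, chromosome 9, 7272514 to 7283331) encodes the main interstitial collagenase of rodents, which cuts collagens I and II. It stood at 774, 933 and 765 CPM in wt 1 to 3 and at 2378, 1545 and 3212 CPM in gld 1 to 3. All gld libraries lay above all wt libraries, and they differed among themselves more than the wt libraries did. From 824 ± 94.6 to 2379 ± 834 CPM (SD, n = 3), Mmp13 rose 2.89-fold, with a log2 fold change of 1.53 ± 0.20 (SE, edgeR adjusted p = 5.58e-05). The smallest change when 1 library was left out was 1.23, without gld 3.

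Mmp3 (ENSMUSG00000043613, 7445822 to 7455975), whose product stromelysin-1 cuts proteoglycans, fibronectin and other MMP precursors, starts 173 kb downstream of the start of Mmp13. It stood at 4847, 5876 and 4797 CPM in wt, and in gld at 6206, 3940 and 8380 CPM. The gld libraries lay on both sides of the wt libraries, with gld 2 below all of them and gld 1 and gld 3 above. Mmp3 was not past the threshold, at 0.26 ± 0.19 (SE, edgeR adjusted p = 0.453). This rested on single libraries: without gld 2 the value was 0.47 and past the threshold (edgeR adjusted p = 0.0263), and without gld 3 it was −0.048.

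Mmp10 (7502352 to 7510240) encodes stromelysin-2, the closest relative of stromelysin-1, and lies 46.4 kb beyond Mmp3. Its counts were 219, 468 and 373 in wt, and 7, 0 and 0 in gld. The gene was nearly lost from the gld libraries, where gld 1 held every count. Mmp10 fell from 122 ± 23.4 to 0.582 ± 1.01 CPM (SD, n = 3), a log2 fold change of −7.69 ± 0.56 (SE, edgeR adjusted p = 1.85e-07). Without gld 1, no count was left in gld, and the wt mean was at least 352-fold higher than a floor of 3 counts over the other gld libraries. Without gld 3 the log2 fold change was −7.05.

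Mmp8 (7558456 to 7568485), which encodes the collagenase known from neutrophils, lies 48.2 kb beyond Mmp10. It stood at 27.3, 20.5 and 20.6 CPM in wt, and in gld at 27.2, 26.1 and 22.4 CPM. The groups overlapped, and its log2 fold change was 0.15 ± 0.32 (SE, edgeR adjusted p = 0.836). Of 8 neutrophil markers, 1 (Camp) could be tested and was not past the threshold, and 6 were listed at 0. Over a stretch of 286 kb between the first and the last start, the called members thus comprised 1 that rose and 1 that fell, with a member not past the threshold on either side of Mmp10. All 4 genes have 1 annotated transcript each, and no run of 50 bases in their last 300 transcript bases occurs in a transcript of another gene.

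**Figure D1:**
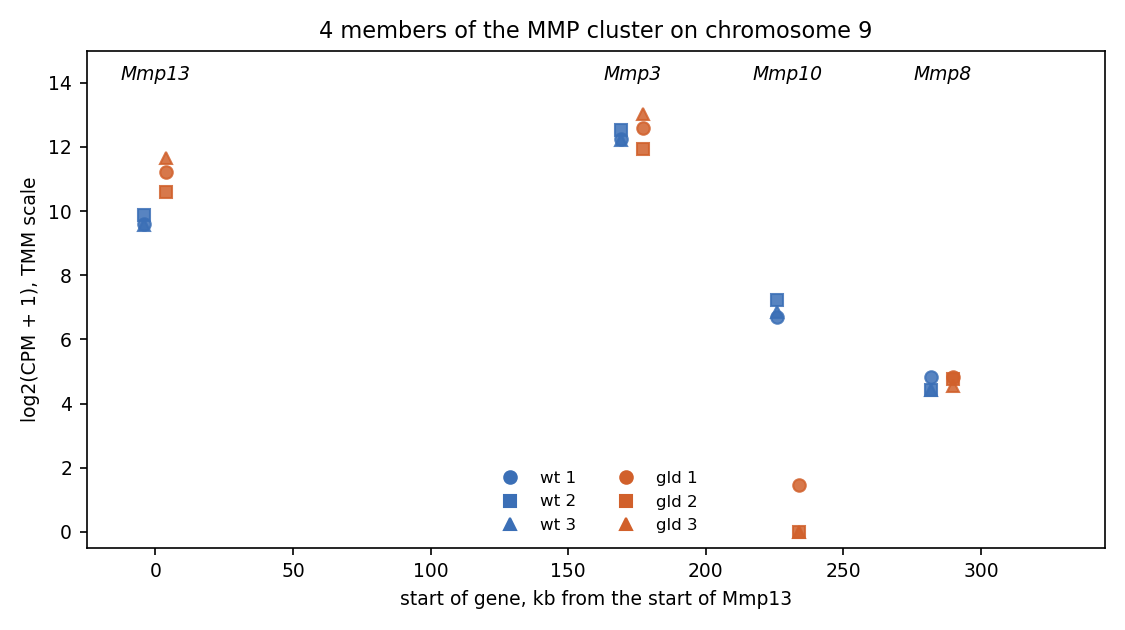
Levels of 4 members of the MMP gene cluster on chromosome 9, as log2(CPM + 1) in each of the 3 wt and 3 gld libraries, against the distance of each gene's start from the start of Mmp13 in kb (Mmp12, Mmp1b and Mmp1a, within this stretch, are not drawn). The gld points lie above the wt points for Mmp13, on both sides of them for Mmp3, far below them for Mmp10 and among them for Mmp8.

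Mmp13 and Mmp3 varied together between libraries. This pair was picked after its counts had been seen. The ratio of Mmp13 to Mmp3 counts, which no scaling of the libraries can change, was 0.1596, 0.1587 and 0.1594 in wt 1 to 3 and 0.3832, 0.3921 and 0.3833 in gld 1 to 3. Within each group the ratio hardly moved, while the level of Mmp3 itself ranged from 3940 to 8380 CPM in gld. The SD of the log2 ratio was 0.0041 in wt and 0.019 in gld, where counting error alone gives 0.033 and 0.018. Between the groups the mean ratio differed 2.43-fold, or by 1.28 on the log2 scale, with a range of 1.27 to 1.28 over leaving out each library. An exact permutation test, two-sided, gave p = 0.1, the smallest possible, and 0.134 after Benjamini-Hochberg adjustment over all 78 pairs of the 13 members with at least 1000 counts in total and 50 in each library. Of these 78 pairs, ranked by the larger of the wt and gld SDs, Mmp13 and Mmp3 had the smallest spread within groups. The next pair, Mmp14 and Adam10, had SDs of 0.068 in wt and 0.11 in gld, where counting error alone gives 0.084 and 0.059. In wt other pairs were also tight: the SD was 0.043 for Mmp13 and Timp2 and 0.046 for Mmp3 and Timp2. In gld those were 0.51 and 0.53.

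**Figure D2:**
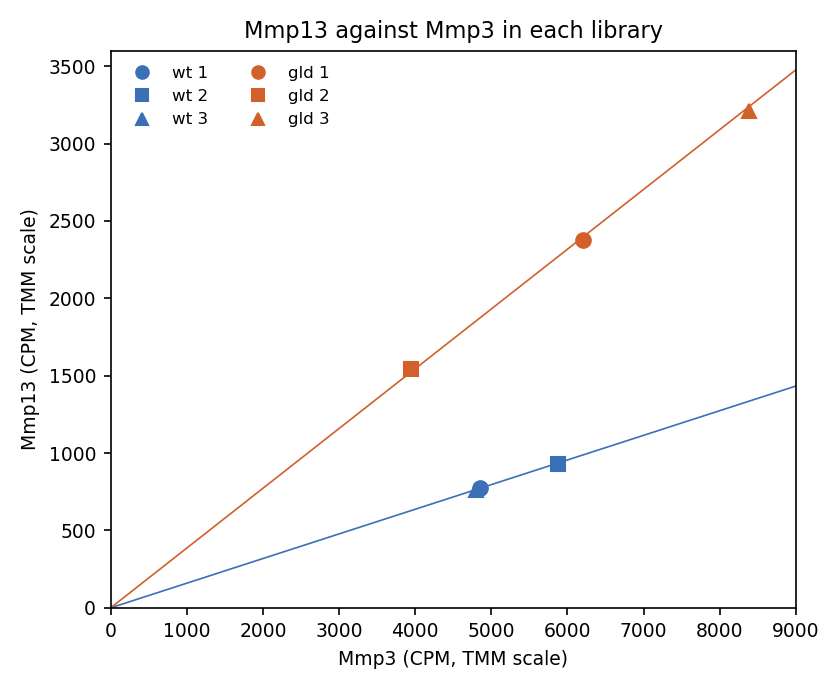
Level of Mmp13 against that of Mmp3, both in CPM, in each of the 3 wt and 3 gld libraries, with a line through the origin at each group's mean ratio. The wt points lie on the line of ratio 0.159 and the gld points on the line of ratio 0.386, with gld 2 lowest and gld 3 highest on both axes.

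None of the other MMP genes passed the test. Mmp14, which encodes the membrane-anchored collagenase that also activates the precursor of MMP2, stood at 1282, 1734 and 1360 CPM in wt, and in gld at 1638, 1736 and 1895 CPM. Its groups overlapped only in that wt 2 lay above gld 1, and its log2 fold change of 0.27 ± 0.12 (SE, edgeR adjusted p = 0.163) became 0.41 without wt 2 (edgeR adjusted p = 0.00747). A repeat that occurs in many genes takes 4.38% of the 50-base words in its last 300 bases. Mmp16, another membrane-type enzyme, ranged from 3.76 to 19.6 CPM in wt and from 13.2 to 25.7 CPM in gld (log2 fold change 0.73 ± 0.52, SE). Mmp2, which encodes gelatinase A, had 22, 0 and 11 counts in the wt libraries and 11, 19 and 0 in those of gld, and 18.3% of its last 300 bases lie in a single transcript. Counts this low and scattered, at a transcript end shared by several isoforms, do not give its level.

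Adam12 and Adam19, the genes of a pair of closely related membrane proteases known for a part in cell fusion and growth factor release, were both lower in gld. Adam12 (chromosome 7, 133883199 to 134232146) stood at 176, 258 and 164 CPM in wt, and in gld at 39.2, 22.7 and 32.8 CPM. Adam19 (chromosome 11, 46055992 to 46147343) stood at 199.7, 337 and 211 CPM in wt, and in gld at 56.6, 48.5 and 62.6 CPM. In both genes wt 2 was the highest wt library and gld 2 the lowest gld library, and the groups lay far apart. Adam12 fell by 2.66 ± 0.24 and Adam19 fell by 2.16 ± 0.21 on the log2 scale (SE, edgeR adjusted p = 1.69e-06 and 3.82e-06), a mean level 6.32-fold and 4.46-fold lower in gld. Of the 50-base words in the last 300 bases of Adam19, 9.56% also occur in the antisense gene Gm16033, and reads there cannot be assigned without a stated strand setting.

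The other ADAM genes gave no call. Adam10 encodes the main sheddase of Notch receptors and cadherins. It lay between 107 and 149.5 CPM in wt and between 151 and 156 CPM in gld. The groups did not overlap, but its log2 fold change of 0.33 ± 0.17 was not past the threshold (SE, edgeR adjusted p = 0.219). Adam9, a widely expressed sheddase gene, lay between 127 and 147 CPM in wt and between 108 and 136 CPM in gld (−0.14 ± 0.16, SE). Adam17, the gene of the TNF-releasing sheddase, had 0 counts in each wt library and 0, 3 and 9 in gld, and all of its last 300 bases also lie in the antisense gene Iah1. Adam15 had 2 counts in wt and 17 in gld, and Adam8 was listed at 0.

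Among the ADAMTS proteases that cut aggrecan and versican, 2 of 4 tested genes rose in gld, beside 9.74% of all tested genes. Of all 8 tested ADAMTS genes, 2 rose and 1 fell. Adamts5 (chromosome 16, 85856173 to 85901828), which encodes the major aggrecanase of mouse cartilage, stood at 147, 226 and 216 CPM in wt, and in gld at 437, 409.5 and 368 CPM. Every gld library lay above every wt library, and Adamts5 rose 2.06-fold (log2 fold change 1.04 ± 0.16, SE, edgeR adjusted p = 2.79e-04). Adamts1, which encodes a related versican-cutting enzyme, lies 53.1 kb away on the same strand and had 532, 1083 and 1025 counts in the wt libraries and 1355, 1372 and 1241 in those of gld. Its mean was 302 ± 47.4 CPM for wt against 318 ± 56.2 CPM for gld (SD, n = 3), the groups overlapped, and its log2 fold change was 0.07 ± 0.16 (SE, edgeR adjusted p = 0.848).

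Adamts15, the gene of another aggrecanase, had 14, 22 and 32 counts in the wt libraries and 175, 113 and 133 in those of gld. It rose from 7.79 ± 1.78 to 33.6 ± 8.81 CPM (SD, n = 3), a log2 fold change of 2.09 ± 0.38 (SE, edgeR adjusted p = 0.00117), and gld 1 was the highest library. Adamts9, a proteoglycan-cutting enzyme whose gene has a shared transcript end, had 14, 11 and 36 counts in the wt libraries and 43, 29 and 125 in those of gld. The groups overlapped and 1.06 ± 0.61 was not past the threshold (SE, edgeR adjusted p = 0.294). Adamts12 lay between 21.6 and 41.1 CPM in wt and between 22.2 and 35.2 CPM in gld, Adamts10 had 34 counts in wt and 76 in gld, and neither was past the threshold. Adamts7 had 7 counts, all in wt 3, and Adamts4 was listed at 0.

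The enzymes that trim procollagen changed unequally. Adamts14 (chromosome 10, 61197112 to 61273438), a procollagen N-proteinase gene, had 71, 118 and 61 counts in the wt libraries and 28, 35 and 13 in those of gld. It fell from 29.8 ± 9.79 to 6.29 ± 3.33 CPM (SD, n = 3), by 2.25 ± 0.49 on the log2 scale (SE, edgeR adjusted p = 0.00468). Adamts2, the main procollagen N-proteinase gene of skin and bone, stood at 346, 285 and 260.4 CPM in wt, and in gld at 235, 273 and 217 CPM. Those groups overlapped, and −0.29 ± 0.15 was not past the threshold (SE, edgeR adjusted p = 0.21), although it was called lower with libraries scaled by size alone (edgeR adjusted p = 0.0444).

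Pcolce2 encodes an enhancer of the C-proteinase BMP1. The gene, on chromosome 9 from 95637601 to 95698096, had 2, 8 and 25 counts in the wt libraries and 99, 101 and 135 in those of gld. All gld libraries, at 24.7 to 27.7 CPM, lay above all wt libraries, at 0.94 to 7.68 CPM, and the wt libraries were far more scattered. Pcolce2 rose by 2.76 ± 0.58 on the log2 scale (SE, edgeR adjusted p = 0.00332), and by 3.83 without wt 3. Its relative Pcolce had 0, 4 and 3 counts in the wt libraries and 27, 17 and 0 in those of gld, and Bmp1 itself 1, 8 and 12 in wt and 0, 2 and 0 in gld. Both have a shared transcript end and neither could be tested.

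Htra3 had the smallest adjusted p of the members. It encodes a secreted serine protease known to bind TGF-beta family proteins, and lies on chromosome 5 from 35652023 to 35679782. It stood at 32.4, 29.4 and 31.3 CPM in wt, and in gld at 309, 306 and 279 CPM. Libraries within a group were almost level, and Htra3 rose 9.6-fold, from 31.0 ± 1.53 to 298 ± 16.3 CPM (SD, n = 3), with a log2 fold change of 3.26 ± 0.16 (SE, edgeR adjusted p = 3.84e-09). Htra1, its relative, was listed at 0.

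Fap, which encodes the fibroblast activation protein, a membrane protease that cuts after proline and is known from activated fibroblasts, had 8, 0 and 0 counts in the wt libraries and 187, 216 and 452 in those of gld. The gene was all but restricted to the gld libraries, and wt 1 held every wt count. Fap rose from 1.25 ± 2.17 to 65.5 ± 24.2 CPM (SD, n = 3), with a log2 fold change of 6.01 ± 0.74 (SE, edgeR adjusted p = 3.35e-05). Without wt 1, the gld mean was at least 140.1-fold higher than a floor of 3 counts over the other wt libraries, and without wt 2 or wt 3 the log2 fold change was 5.36 or 5.34. Of its last 300 bases, 56.7% lie in a single one of its 9 annotated transcripts. Fap was highest in gld 3 and lowest in gld 1, and so were the summed macrophage markers among gld. Adam9, Mmp14, Mmp16 and Pcolce2 had the same order of gld libraries. A link of Fap with those markers was not tested.

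**Figure D3:**
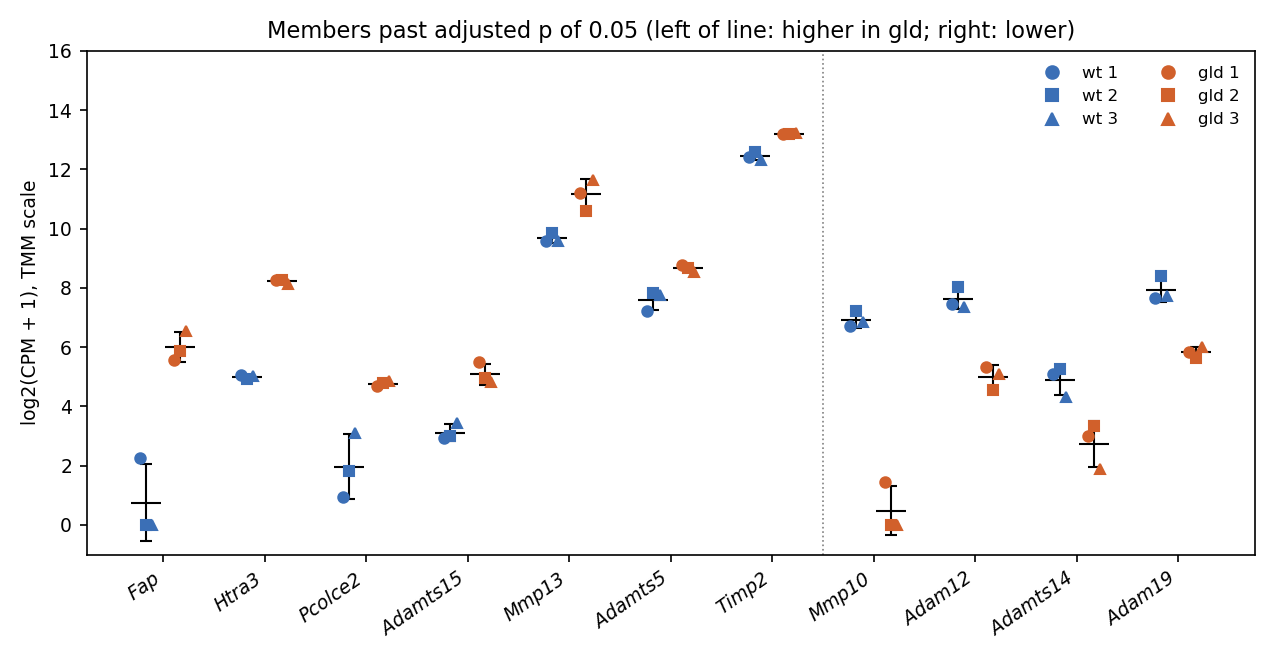
Level of the 11 called members as log2(CPM + 1) in each of the 3 wt and 3 gld libraries, with the mean (bar) and SD (whiskers) of each group. The 7 genes left of the dotted line are higher in every gld library than in any wt library, and the 4 on its right are lower in every gld library.

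Of the Timp inhibitors, Timp2 carried nearly all the counts. Timp2 (chromosome 11, 118301069 to 118355740), which both inhibits MMPs and helps MMP14 to activate MMP2, stood at 5439, 6200 and 5139 CPM in wt, and in gld at 9415, 9339 and 9624 CPM. The gld libraries were close to each other and lay above every wt library. Timp2 rose 1.69-fold, from 5593 ± 547 to 9459 ± 148 CPM (SD, n = 3), with a log2 fold change of 0.76 ± 0.09 (SE, edgeR adjusted p = 1.49e-05).

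Timp3, which encodes an inhibitor bound to the matrix that also blocks ADAM17 and aggrecanases, stood at 64.8 to 88.3 CPM in wt and 65.9 to 87.8 CPM in gld. The ranges were almost the same and the log2 fold change was −0.04 ± 0.20 (SE, edgeR adjusted p = 0.942), but all of its last 300 bases also lie in the antisense gene Syn3. Timp4 had 7 counts, all in gld 1. Timp1, the most inducible inhibitor gene of the family, was listed at 0 in all 6 libraries, and none of its last 300 bases lies in a single transcript, so the balance of proteases and inhibitors cannot be read from these counts.

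**Figure D4:**
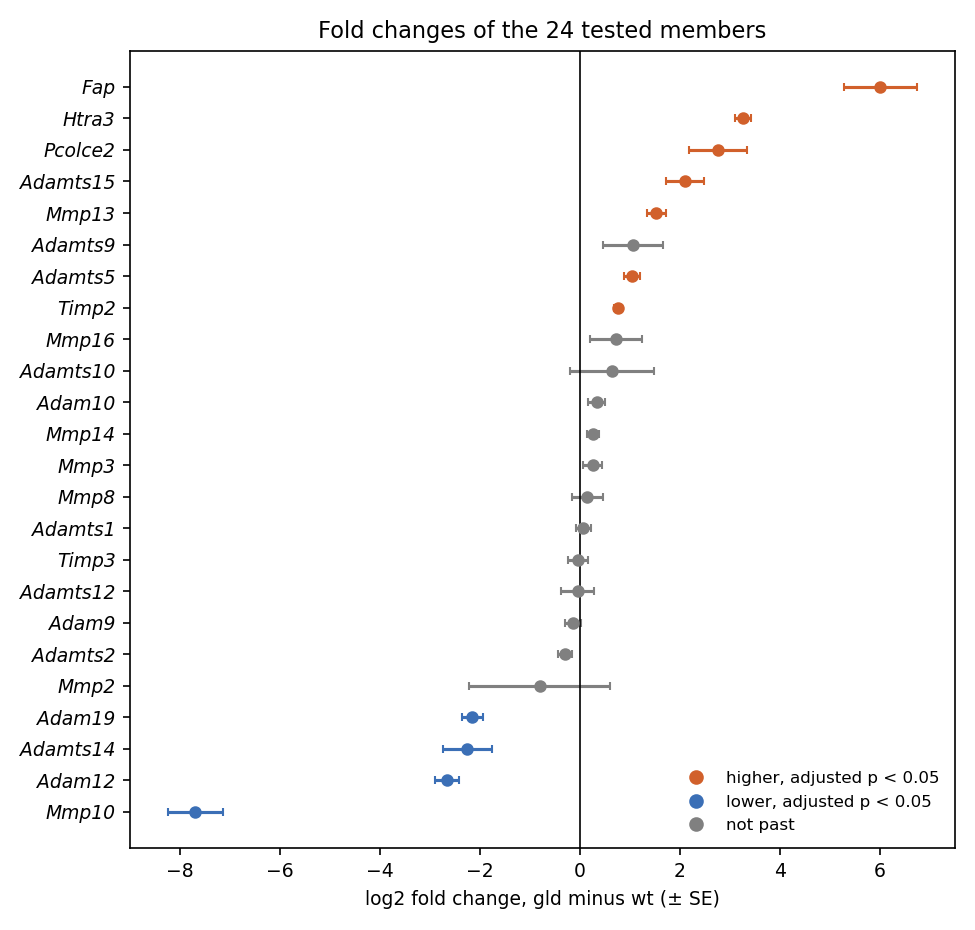
Log2 fold change, gld minus wt, with its standard error for the 24 tested members, coloured by call at an adjusted p of 0.05. Fap at 6.01 and Mmp10 at −7.69 lie farthest from 0, and the 13 members not past the threshold lie between −0.80 and 1.06.

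Members differed in how their annotated transcripts end. Where at least 99% of the last 300 exonic bases lie in 1 transcript, the end is called single here. Of 22 members with a single end 19 could be tested, and of 20 with a shared end 5 could. All 5 members listed at 0 (Timp1, Htra1, Adamts4, Adam8 and Adamtsl2) have a shared end, so a listed 0 does not show that the transcript was absent. Another 13 members had counts but too few to test. Among those, Mmp15 had 5, 17 and 2 counts in the wt libraries and 8, 1 and 86 in those of gld, so that gld 3 held most of them. Mmp9, the gelatinase gene of macrophages and osteoclasts, had no count in wt and 4, 0 and 16 in gld, and Mmp11 had 30 counts in wt and 22 in gld. Mmp19 had 4 and 10, Mmp23 had 10 and 1, Adamtsl1 had 27 and 35, and Adamtsl4 had 1 and 2 counts in wt and gld. All of the last 300 bases of Mmp19 also lie in the antisense gene Tmem198b.

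The other genes of these pathways were taken from lists that hold no member. Beside their calls stand the 17.4% of all tested genes that were called, 9.74% higher and 7.69% lower. Of 34 further members of the same families, 5 could be tested and 1 rose: Adamtsl3, an ADAMTS-like gene, from 59.5 ± 11.4 to 128 ± 13.8 CPM (SD, n = 3; edgeR adjusted p = 9.29e-04). Of 28 activators, partners and clearance receptors, 14 could be tested, 2 rose and 4 fell. Sfrp2, a Wnt modulator reported to bind procollagen proteinases, rose by 2.04 ± 0.14, and the cysteine protease inhibitor gene Cst3 rose by 0.77 ± 0.09 on the log2 scale. The plasminogen activator gene Plat fell by 1.97 ± 0.27 (SE, largest edgeR adjusted p of these 3 genes 9.40e-05). Plasmin, which plasminogen activators generate, is itself an activator of MMP precursors. The count of lower genes in this list was 2 without wt 2 and 2 without wt 3.

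Of 35 known substrates, 27 could be tested, 13 rose and 1 fell, beside 9.74% higher and 7.69% lower among all tested genes. The collagen genes Col1a1 and Col1a2 rose by 1.83 ± 0.12 and 1.68 ± 0.12, the proteoglycan gene Lum by 2.01 ± 0.11 and the cadherin gene Cdh11 by 1.79 ± 0.13 on the log2 scale (SE, largest edgeR adjusted p of these 4 genes 1.75e-07). Col1a1, Col1a2 and Cdh11 are also among the osteoblast markers that rose, so the 2 lists are not separate results for these genes. The aggrecanase substrates are large proteoglycans of cartilage and provisional matrix, and of those Vcan rose from 33.3 ± 11.7 to 144 ± 15.9 CPM (SD, n = 3). Acan had no count in wt and 22.9 ± 2.18 CPM in gld, so it passed the filter through gld alone and could only be called higher. Adamts5, Adamts15 and the chondrocyte marker list, which holds Acan, were higher in gld too, as is every gene called higher. A link between these genes was not tested. The 1 substrate gene that fell was Ereg, an EGF receptor ligand released by ADAM17, from 155 ± 31.0 to 42.6 ± 6.70 CPM (SD, n = 3). Vcan, Acan and Ereg, beyond the 4 genes of smallest adjusted p, were singled out after their values had been seen. The median log2 fold change was 0.37 for the tested substrates and −0.14 for the tested activators and partners, beside 0.02 for all tested genes.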

How the data were processed

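QuantSeq 3′ mRNA FWD libraries were made from total RNA and sequenced as single reads, per the labels' protocols. Per the series' design text, reads were trimmed with Cutadapt and aligned with STAR, and FastQC, Trim Galore, DESeq2 and the build mm10 are named in the submitters' processing notes. How reads were counted, with which strand setting and on which gene models, is not given in the sources used here. The deposited table holds the authors' raw read counts per Ensembl gene, and 1 empty row was left out. Symbols, positions and transcript ends came from GENCODE M21 (GRCm38) for 51932 identifiers. No column of samples was left unused.

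Counts were filtered with filterByExpr (about 10 counts in 3 libraries and 15 in total), scaled by TMM and tested with edgeR 4.0.16 (R 4.3.3) on the 6 libraries together, without covariates, with Benjamini-Hochberg adjustment over the 8692 genes tested, called at 0.05. The script was tested on simulated data. SE is the absolute log2 fold change over the square root of F. Alternatives were DESeq2 1.42.0 (test and size factors), limma-voom 3.58.1, library size alone, no filter, at least 30 counts in total, a replicate block and leaving out each library. Floors of 3 counts cover counting error alone.

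The members, lists and tests were chosen with earlier results of these data known. Every member is accounted for, and of each pathway list up to 4 called genes of smallest adjusted p are named. One such gene is left out and not reported here.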

Additional observations from a re-analysis of the deposited data

How the results depend on the processing

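The 11 called members stayed past the threshold, in the same direction, under all 13 alternatives. The members called higher numbered 7 to 8 and those called lower 4 to 5 over these alternatives, the additional calls being Mmp3 without gld 2, Mmp14 without wt 2 and Adamts2 with library size alone. Signs changed only in members that were not called. With library size alone Mmp8 was at −0.0053 and Adamts1 at −0.082. Over leaving out 1 library, the log2 fold change ran from −1.75 to 0.59 for Mmp2, from −0.048 to 0.47 for Mmp3, from −0.054 to 0.19 for Adamts1, from −0.25 to 0.30 for Adamts12 and from −0.18 to 0.056 for Timp3. The number of genes called lower ran from 0 to 1 for the further family members, from 2 to 4 for activators and partners, from 1 to 2 for substrates and from 0 to 1 for neutrophil markers. Substrates called lower numbered 3 with library size alone, and macrophage markers called higher numbered 5 in limma-voom. The causes of these changes were not tested.

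The replicate numbers are shared by the groups. The deviations of same-numbered libraries from their group means had r = −0.023, −0.015 and −0.023, and those of differently numbered libraries −0.005 to 0.026. Such values cannot show whether same-numbered libraries were handled together, so a pairing is unknown. With the replicate block edgeR called 760 genes higher and 599 lower, and 7 members higher and 4 lower. Of the 18 members with too few counts to test, 15 have a shared transcript end, and the parts of depth and of shared ends in this were not tested.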
